A study of Mus musculus with 8 samples.

Results

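The genes described here are 39 that carry out DNA replication or prepare a cell for S phase, the part of the cell cycle in which the genome is copied. They were chosen by name from known function, with earlier results of these data already known. All 39 were among the 22059 genes with a read count and among the 17081 genes with enough reads to be tested. RNA was sequenced from whole liver of wild-type FVB mice (FVB/NJ in the study's methods) at embryonic day 18 (E18), postnatal day 14 (P14), postnatal day 28 (P28) and in adults, whose age the methods give as 3 months, with 2 samples at each stage and no treatment or altered allele at any stage. The study followed the liver from late fetal life to adulthood to find genes and splice forms that change as the organ matures. The labels number the samples without saying that each came from its own animal, and the study calls them biological duplicates. The p-values for single genes thus set the change between stages against the spread between the 2 samples of a stage. That spread was estimated over all stages together, with information shared across genes.

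Replication begins when the licensing factors Cdc6 and Cdt1 load the ring-shaped MCM2-7 helicase onto DNA at origins, a step that geminin, the product of Gmnn, holds back. In S phase the helicase is switched on with the help of Mcm10 and the GINS complex, primase and DNA polymerase alpha start each new strand, and replication factor C loads the sliding clamp Pcna that holds the main polymerases on the template. Transcription factors of the E2F family are known to drive many of these genes as a cell leaves rest. The fetal liver is a site of blood formation as well as of growing hepatocytes, whereas most hepatocytes of the adult liver rest outside the cycle.

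Between 68154675 and 106055723 reads fell on genes in each sample. Levels are given as read counts corrected for gene length and library size (RPKM) after scaling by the trimmed mean of M-values (scaled RPKM), a unit that allows genes of different length to be compared. The scaling factors of the E18 samples, 1.54 and 1.60, stood apart from those of the other 6, which lay between 0.847 and 0.888. The 8 hepatocyte markers measured, Alb and Hnf4a among them, took between 7.82% and 24.1% of the reads on genes in every sample, as the liver label requires.

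Promoters of these genes held matches to the E2F site more often than promoters at large. Of the 39 genes, 30 had an entry among the RefSeq promoters of the GRCm38.p6 build, each running from 250 bases before to 50 bases after the transcription start, and these entries gave 34 distinct promoters. The first motif searched was TTGGCGC, the second spelling allowed was TTCGCGC, the third was written as TTCCCGC, and the last form was spelled TTGCCGC. Both strands were read, and overlapping matches were counted separately. A match lay in 23 of the 34 promoters (67.6%), against 3145 of 32851 promoters of all genes (9.57%). Member promoters were also richer in G and C, with a median of 60.7% against 52.7%, and among the 10640 promoters whose G and C content lay between the members' quartiles of 53.2% and 65.7%, 13.4% held a match. The CCAAT box, searched as CCAAT, lay in 55.9% of the member promoters and 37.4% of all, and the cell cycle homology element TTTGAA in 8.82% and 17.9%.

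The 12 stretches of 30 bases printed next each surround the E2F match nearest the start site, and they are shown because their genes are among those described sample by sample below. Capitals mark the bases of each whole match, and each sequence is read 5′ to 3′ on the strand of its gene. Where a gene had several promoters, the promoter with the most matches was taken.
Mcm6, chr1:128359664-128359693, minus strand: agccggaggcgcGCGCGAAgtggcagcgcg
Mcm7, chr5:138171849-138171878, minus strand: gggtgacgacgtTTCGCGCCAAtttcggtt
Cdc6, chr11:98908001-98908030, plus strand: ggccggtggagaGCGGGAAatcgcctgggg
Cdt1, chr8:122568021-122568050, plus strand: tgcgcggaatccGCGGGAActacctttttg
Rfc3, chr5:151651191-151651220, minus strand: gctTTCGCGCtcGCGGGAAaactctactgt
Rfc4, chr16:23127702-23127731, minus strand: cgccgttctgtgGCGGGAAccgcggtgcca
Prim1, chr10:128015188-128015217, plus strand: aggcctgtcttgTTCCCGCcaattctcgtg
Rrm1, chr7:102441616-102441645, plus strand: caggagaactcgTTCCCGCcaggtccgctt
Rrm2, chr12:24708007-24708036, plus strand: gcaccaacctcaGCGGCAAcgcccgcccgg
Lig1, chr7:13278840-13278869, plus strand: ccgccaaagtgcGCGCGAAatctgtgtggc
Chaf1a, chr17:56040357-56040386, plus strand: tggTTGCCGCggTTCCCGCcaaatacgagc
Chaf1b, chr16:93883915-93883944, plus strand: ggcctgcggcgcGCGGGAAgctgcgggctg

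The promoter of Mcm6 held 5 matches, more than any other member promoter, and that of Pola1 held 4. In Mcm7 the capitals run over 10 bases because matches on opposite strands overlap. No match was found in the windows of Mcm2, Mcm10, Pcna, Pola2, Rfc5, Rpa1, Ccne1, Tk1 and Tyms. Only the exact spellings were searched, so close variants and sites cut by the edge of a window were not counted. A match is a string of letters and not a measured binding site, and binding was not measured here.

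From E18 to adult the replication genes fell together, with few exceptions. Of the 39, 35 were called lower in adult liver, 1 was called higher (Mcm10) and 3 were neither (Gins4, Rfc1 and Tk1). A gene was called when edgeR's quasi-likelihood test gave a Benjamini-Hochberg false discovery rate below 0.1 over all tested genes and the change exceeded 3-fold. By the same rule 23.8% of all tested genes were called lower and 16.8% were called higher. On the log2 scale the 39 genes had a median change of -4.01, or 16.1-fold, against -0.11 over all tested genes. In bulk tissue such as this, fewer cells of a type and less RNA per cell cannot be told apart.

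Levels at E18 ran from 2.29 scaled RPKM for Mcm7 to 100.4 for Mcm3, with a median of 33.3. The median was 9.33 at P14, 3.26 at P28 and 1.44 in adults. Set against its own E18 level, the middle gene was at 23.3% by P14, at 10.3% by P28 and at 6.21% in adults, and the lowest, Mcm6, stood at 0.286% in adults. Even the scarcest, Cdc6, still had at least 14 reads in each adult sample.

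**Figure D1:**
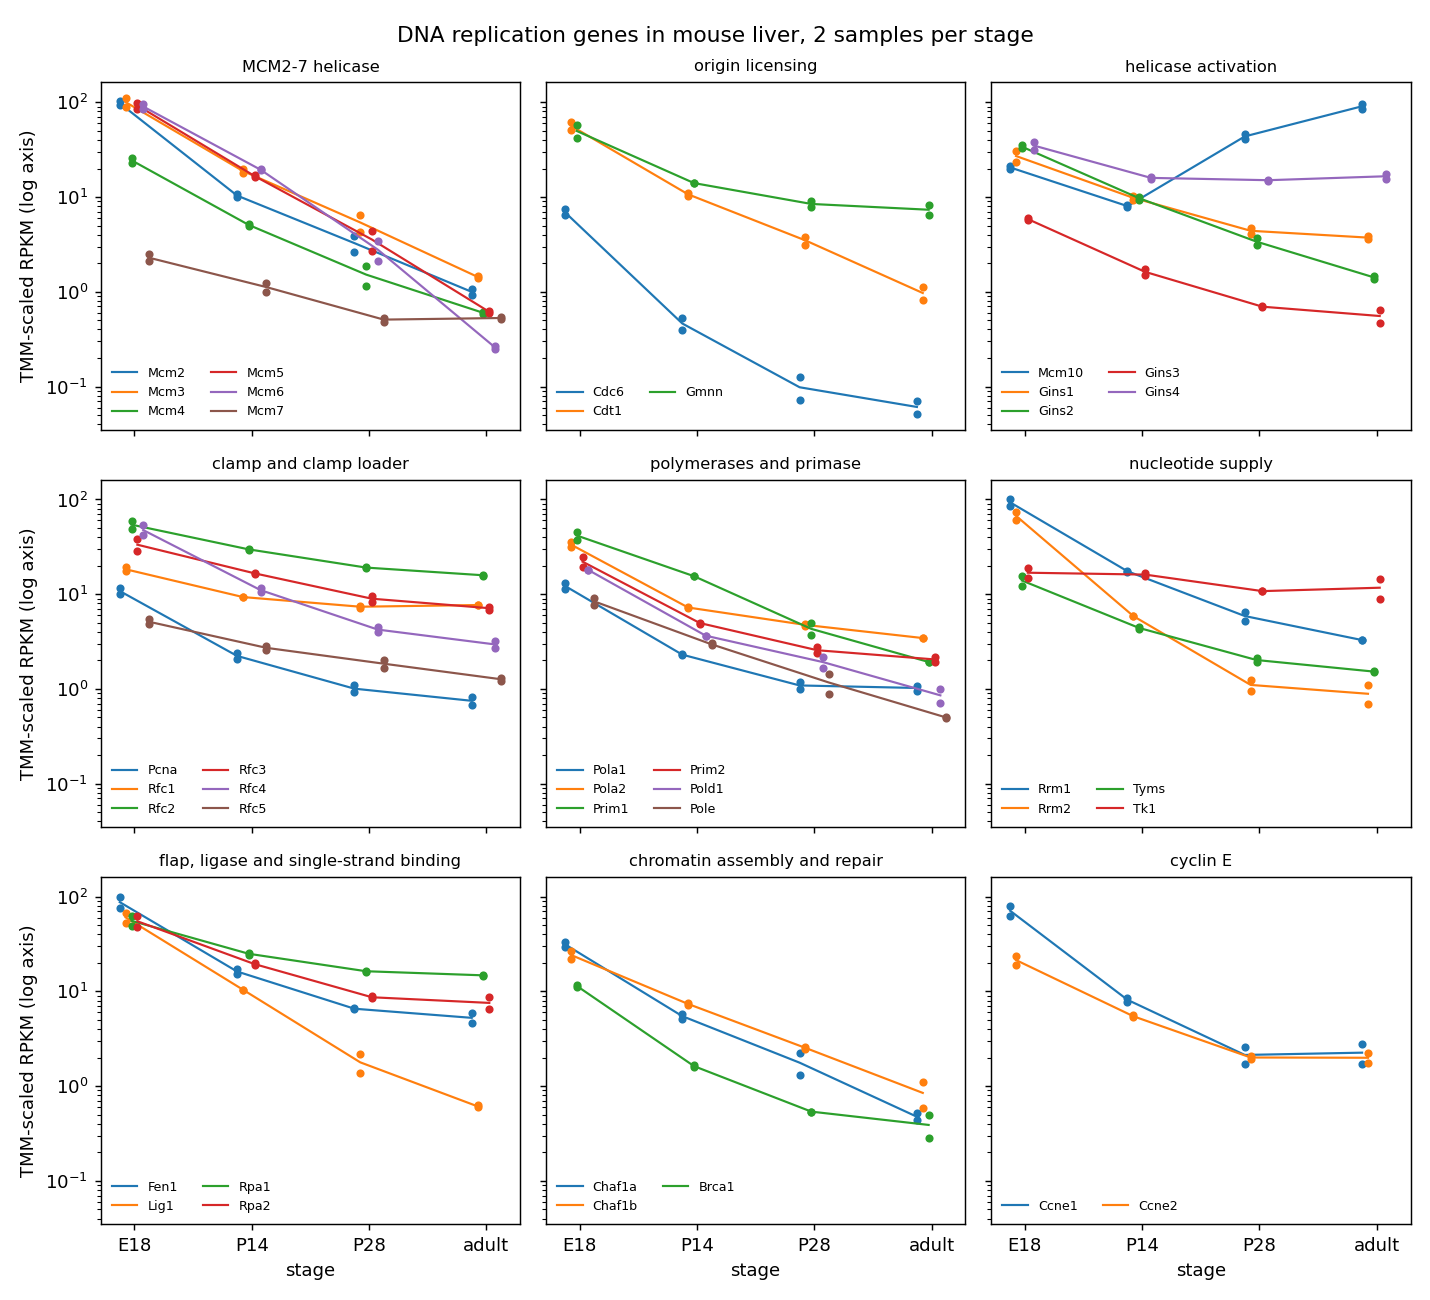
Scaled RPKM (log axis) of the 39 replication genes at E18, P14, P28 and in adults, in 9 panels by role. Points are the 2 samples of each stage and lines join the means. Nearly all lines descend from E18 to adult, whereas that of Mcm10 turns upward after P14. Between P28 and adult several lines stay nearly level, among them those of Gins4, Rfc1, Tk1, Mcm7, Pola1, Ccne1 and Ccne2.

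The licensing factors were among the genes that changed most. Cdc6, the ATPase that brings the helicase to origins, read 6.39 and 7.42 scaled RPKM in the 2 E18 samples, 0.529 and 0.396 at P14, 0.125 and 0.0714 by P28, and 0.0512 and 0.0705 in adults. Its log2 fold change from E18 to adult was -6.81 ± 0.28 (SE; adjusted p = 3.7e-08, edgeR). Most of the fall came before P14, when the level was already at 6.70% of that at E18, and the P28 and adult samples differed by less than the test could call (adjusted p = 0.24, edgeR). Cdt1, its partner in loading, read 50.6 and 62.6 at E18, then 11.1 and 10.2 at P14, 3.82 and 3.15 by P28, and 1.13 and 0.811 in adults. Cdt1 fell in each interval, and by 5.87 ± 0.20 on the log2 scale from E18 to adult. Gmnn, which encodes the inhibitor of Cdt1, read 41.5 and 58.1 at E18, then 14.1 and 13.9 at P14, 7.78 and 9.12 by P28, and 8.18 and 6.51 in adults. Gmnn fell only before P14 by the call used here, and its P28 and adult samples overlapped.

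All 6 subunits of the MCM2-7 helicase were called lower from E18 to adult, but not by like amounts. Mcm6 read 84.8 and 95.5 scaled RPKM at E18, then 19.7 and 19.2 at P14, 3.46 and 2.10 by P28, and 0.267 and 0.249 in adults. It fell 349-fold in all, the largest change of any member (log2 fold change -8.45 ± 0.27, SE; adjusted p = 9.1e-09, edgeR), and its steps grew with age, from -2.22 to -2.80 to -3.43 on the log2 scale. Mcm2, Mcm3, Mcm4 and Mcm5 had log2 fold changes of -6.61, -6.13, -5.35 and -7.24. Mcm7 was far scarcer, at 2.10 and 2.48 at E18, then 1.24 and 1.00 at P14, 0.532 and 0.485 by P28, and 0.517 and 0.541 in adults. Its log2 fold change was -2.11 ± 0.18, the smallest of the 6, and its P28 and adult samples overlapped. The value for Mcm7 is uncertain, since 72.8% of its transcript is at least 97% identical to the pseudogene Gm5487 and the study lists uniquely mapped reads for each library but not how the deposited counts treated reads that match both.

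The genes that activate the loaded helicase included the 1 member that rose, Mcm10, and 4 that were lower in adults. The GINS complex has 4 subunits, of which 3 were called lower by adulthood, with log2 fold changes of -2.86 for Gins1, -4.58 for Gins2 and -3.40 for Gins3. Gins2 read 32.5 and 35.4 scaled RPKM at E18, then 9.34 and 10.1 at P14, 3.66 and 3.10 by P28, and 1.47 and 1.36 in adults. The fourth subunit, Gins4, read 31.5 and 38.5 at E18, then 15.6 and 16.2 at P14, 15.2 and 14.9 by P28, and 17.6 and 15.5 in adults. The change of Gins4 was 2.11-fold, short of the threshold, and lay wholly before P14. From P14 on, its 6 samples stayed within 14.9 and 17.6.

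Mcm10, which binds the helicase and helps to set it moving, took the opposite course. It read 19.9 and 21.2 scaled RPKM at E18, then 7.85 and 8.18 at P14, 40.8 and 46.4 by P28, and 85.6 and 96.0 in adults. The log2 fold change was -1.36 ± 0.11 before P14, 2.44 ± 0.11 from P14 to P28 and 1.06 ± 0.10 from P28 to adult (SE; adjusted p = 3.3e-06, 1.2e-06 and 0.00042, edgeR). Only the middle step exceeded 3-fold. Over the whole course Mcm10 rose 4.42-fold, and no 2 stages overlapped. In adults it stood at 90.8 on average, the highest level of any member, whereas the other 38 genes together summed to 139.8 and 124.3. With library size alone as the scaling, or with limma on log2 RPKM, its rise from E18 to adult was 1.30 and 1.27 on the log2 scale and no longer passed 3-fold.

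No annotated exon of another gene overlaps those of Mcm10, and no other transcript shares a near-identical stretch of 100 bases or more with it, in the GENCODE annotation. Of its neighbours, Ucma had 4 reads or fewer in every sample. Optn read 8.93 and 11.2 scaled RPKM at E18, then 33.8 and 35.8 at P14, 42.1 and 41.7 by P28, and 42.4 and 45.8 in adults. Optn rose before P14, whereas Mcm10 rose after it. The files give 1 value per gene, so which part of the Mcm10 locus the adult reads cover was not tested.

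**Figure D2:**
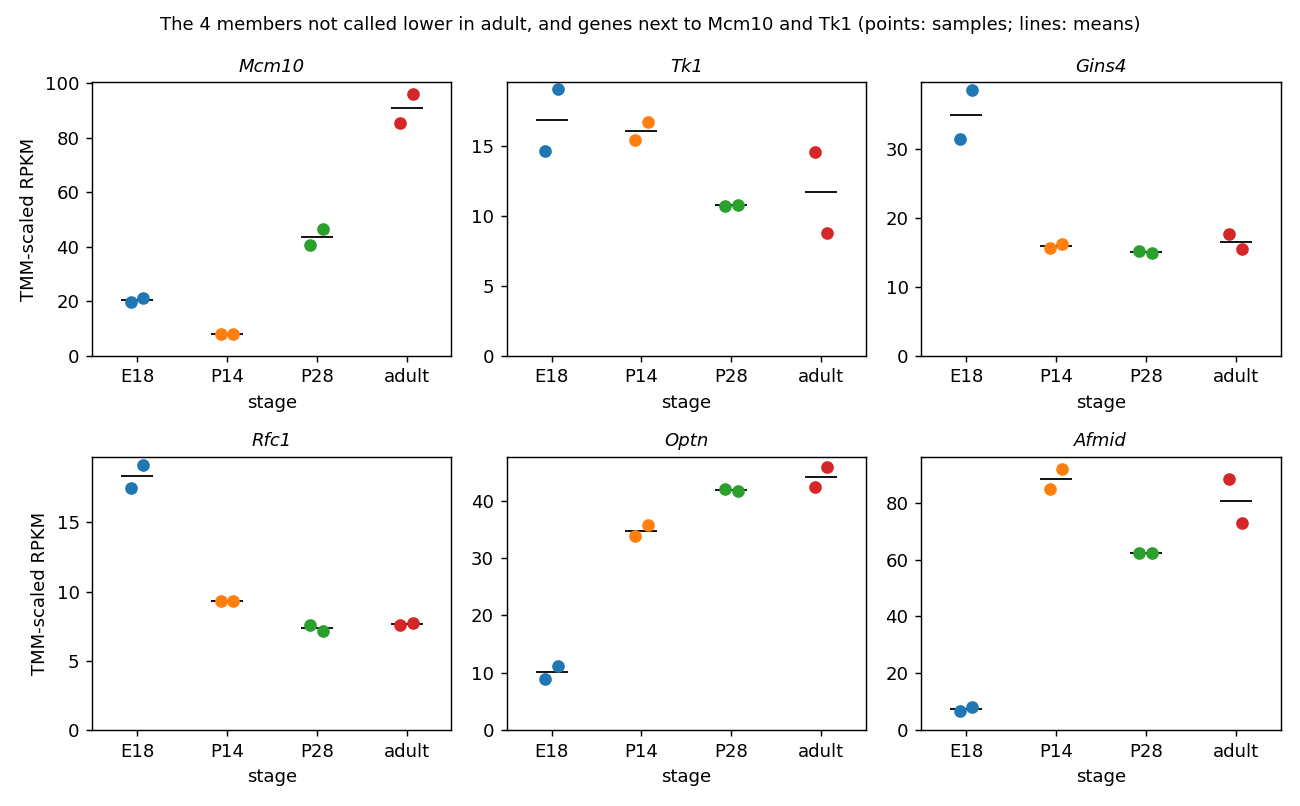
Scaled RPKM (linear axes from 0, each panel with its own range) of Mcm10, Tk1, Gins4 and Rfc1, the 4 members not called lower in adults, and of Optn, next to Mcm10, and Afmid, which overlaps Tk1. Points are samples and lines are stage means; Mcm10 climbs from about 8 at P14 to 85.6 and 96.0 in adults, and the 2 adult samples of Tk1 lie apart at 14.6 and 8.82.

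The 6 polymerase and primase genes fell within a narrow band, from -3.28 for Pola2 to -4.43 for Prim1 on the log2 scale. Prim1, the catalytic subunit of primase, read 37.5 and 45.8 scaled RPKM at E18, then 15.5 and 15.5 at P14, 4.93 and 3.69 by P28, and 1.92 and 1.94 in adults. Its largest step, -1.84, was from P14 to P28. Pola2, the accessory subunit of polymerase alpha, read 31.6 and 35.3 at E18, then 7.10 and 7.38 at P14, 4.85 and 4.63 by P28, and 3.42 and 3.47 in adults. Pola2 made most of its change, -2.21, before P14. Pola1 and Prim2, the other subunits of that complex, changed by -3.58 and -3.42, and Pold1 and Pole, the catalytic subunits of polymerases delta and epsilon, by -4.40 and -4.07.

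Of the 9 groups by role, the clamp and its loader had the smallest median log2 fold change, -2.12 over 6 genes. Pcna, the sliding clamp, fell by 3.85 ± 0.18 on the log2 scale. Rfc4 showed the largest change of the group, from 41.7 and 53.3 scaled RPKM at E18 through 11.7 and 10.4 at P14 and 4.49 and 3.97 at P28 to 2.73 and 3.17 in adults. Rfc1, the large subunit of the loader, showed the smallest. It read 17.5 and 19.2 at E18, then 9.32 and 9.34 at P14, 7.56 and 7.20 by P28, and 7.61 and 7.76 in adults. The change of Rfc1 was 2.39-fold, short of the threshold although the test itself was passed (log2 fold change -1.25 ± 0.08, SE; adjusted p = 8.5e-07, edgeR).

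The other 3 small subunits of the loader lay between these. Rfc2 read 48.9 and 59.5 scaled RPKM at E18, then 29.2 and 30.2 at P14, 19.18 and 19.03 by P28, and 15.9 and 15.7 in adults. Rfc3 read 28.4 and 38.3 at E18, then 16.3 and 16.9 at P14, 9.63 and 8.29 by P28, and 6.83 and 7.40 in adults. Rfc5 read 4.79 and 5.45 at E18, then 2.56 and 2.87 at P14, 2.04 and 1.66 by P28, and 1.32 and 1.21 in adults. All 3 passed 3-fold over the whole course, by 3.42, 4.68 and 4.04-fold, though none did so in a single interval.

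Enzymes that supply deoxynucleotides divided in the same way. Rrm2, the small subunit of ribonucleotide reductase that appears in S phase, read 60.3 and 74.0 scaled RPKM at E18, then 5.84 and 5.91 at P14, 1.256 and 0.9496 by P28, and 1.09 and 0.691 in adults. Rrm1, the large subunit, read 85.9 and 100.4 at E18, then 17.6 and 17.3 at P14, 6.57 and 5.20 by P28, and 3.25 and 3.31 in adults. They fell 76.0-fold and 28.4-fold, and Tyms, which encodes thymidylate synthase, fell 9.14-fold. Tk1, which encodes the cytosolic thymidine kinase, read 14.7 and 19.1 at E18, then 15.5 and 16.8 at P14, 10.8 and 10.8 by P28, and 14.6 and 8.82 in adults. Tk1 was not called in any interval, and its log2 fold change from E18 to adult was -0.53 ± 0.21 (SE; adjusted p = 0.045, edgeR). Exons of Afmid on the opposite strand cover 1.60% of the exonic bases of Tk1. Afmid read 6.59 and 8.21 at E18, then 84.8 and 91.9 at P14, 62.1 and 62.2 by P28, and 88.4 and 72.7 in adults. Afmid was lower in the second adult sample, as Tk1 was, but rose 11.9-fold from E18 to P14, where Tk1 did not. The share of Tk1 reads that could stem from Afmid was not tested.

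Of the proteins that finish the new strands, Lig1, the ligase that seals Okazaki fragments, read 53.1 and 67.7 scaled RPKM at E18, then 10.4 and 10.4 at P14, 2.20 and 1.36 by P28, and 0.625 and 0.599 in adults. It fell 98.6-fold (log2 fold change -6.62 ± 0.25, SE; adjusted p = 2.1e-08, edgeR), and Fen1, the flap nuclease that acts before it, fell 16.7-fold. The single-strand binding subunit Rpa1 read 49.0 and 62.2 at E18, then 25.4 and 24.5 at P14, 16.1 and 16.5 by P28, and 14.7 and 14.9 in adults. Rpa1 kept 26.6% of its E18 level and Rpa2 kept 13.8%, both more than the middle gene.

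The 3 genes for chromatin assembly and repair were all called lower. Chaf1a, the large subunit of the factor that places histones behind the fork, read 29.8 and 33.1 scaled RPKM at E18, then 5.79 and 5.17 at P14, 2.22 and 1.32 by P28, and 0.437 and 0.515 in adults. Chaf1b, its partner, read 21.8 and 26.7 at E18, then 7.19 and 7.54 at P14, 2.62 and 2.45 by P28, and 1.11 and 0.583 in adults. Brca1, which acts in repair at broken forks, fell by 4.88 ± 0.21 on the log2 scale.

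The E-type cyclins, which with their kinase trigger entry into S phase, changed before P28. Ccne1 read 61.7 and 80.2 scaled RPKM at E18, then 8.62 and 7.68 at P14, 1.71 and 2.56 by P28, and 2.80 and 1.71 in adults. Ccne2 read 18.95 and 23.84 at E18, then 5.62 and 5.31 at P14, 1.92 and 2.09 by P28, and 2.21 and 1.77 in adults. For both, the P28 and adult samples overlapped. Over the whole course they fell 31.6-fold and 10.7-fold.

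**Figure D3:**
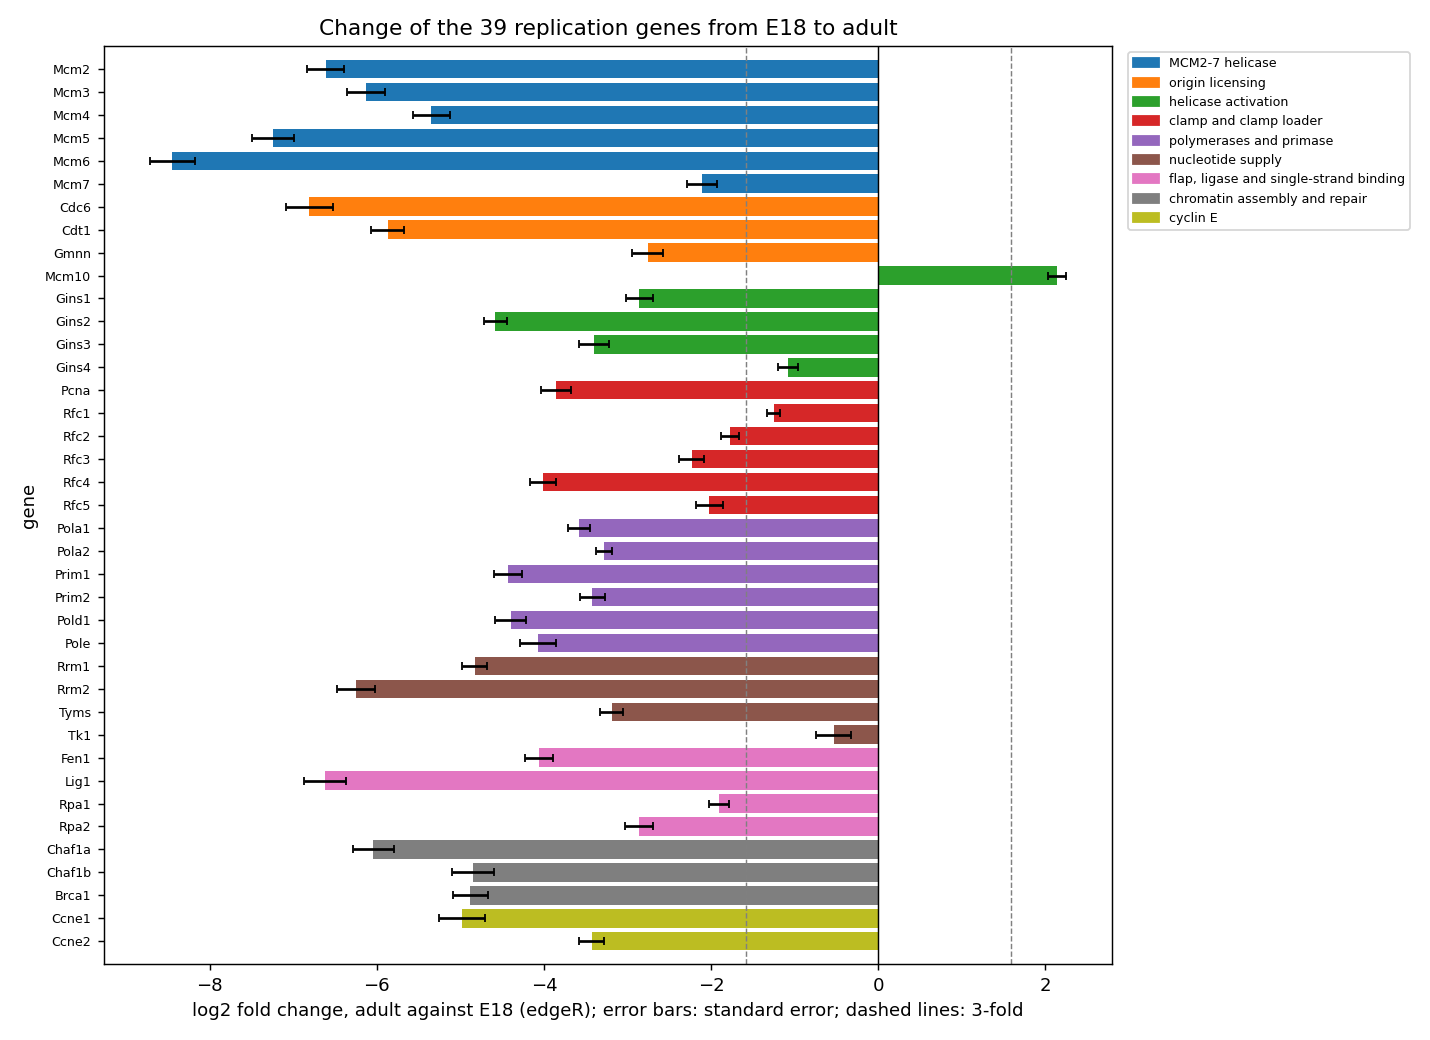
Log2 fold change from E18 to adult (x axis) of each of the 39 genes, coloured by role; bars start at 0, error bars are standard errors from edgeR and dashed lines mark 3-fold. The bar of Mcm6 is longest at -8.45, Mcm10 alone points to the right at 2.14, and Gins4, Rfc1 and Tk1 stop short of the dashed line.

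In time, the change was largest before P14, by number of calls and by median, and continued afterwards. From E18 to P14, 26 of the 39 genes were called lower and none higher, against 15.4% and 13.8% of all tested genes. At a false discovery rate below 0.1 with no fold threshold edgeR gave 38 lower and 0 higher. Without that threshold 6719 of the 17081 tested genes were lower and 6517 were higher. From P14 to P28, 13 were called lower and Mcm10 was called higher, against 5.98% and 3.61%. From P28 to adult, 7 were called lower and none higher, against 2.24% and 0.767%. Without the fold threshold, 18 were lower and 1, Mcm10, was higher in this last interval, against 2259 and 1357 of 17081 tested genes. The median log2 fold changes of the 3 intervals were -2.10, -1.31 and -0.43, against -0.03, -0.05 and 0 over all tested genes. Neighbouring intervals share the samples of the stage between them.

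The genes followed several courses. Mcm2, Mcm3, Mcm5, Mcm6, Cdt1 and Chaf1a were called lower in all 3 intervals. Mcm4, Cdc6, Rrm2, Lig1, Brca1 and Ccne1 were called lower in the first 2 but not in the last. By contrast, Mcm7, Gins1, Rfc2, Rfc3, Rfc5, Pole, Rpa1 and Rpa2 were called lower over the whole course but in no single interval. The mean fell at every step for 33 genes. Among the 35 called lower, the share of the log2 change made before P14 had a median of 51.2% and ran from 26.2%, for Mcm6, to 67.4%.

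Counts in the later intervals rested in part on single P28 samples, which stood further apart than those of P14. Of the 39 genes, 30 were higher in P28 replicate 1 than in replicate 2, with a median ratio of 1.16, against 54.5% of all tested genes and a median ratio of 1.02. Without P28 replicate 2, 8 genes in place of 13 were called lower from P14 to P28, and the calls of Mcm2, Mcm3, Mcm4, Cdt1 and Chaf1a were lost. Without P28 replicate 1, 3 genes in place of 7 were called lower from P28 to adult, and those of Mcm2, Mcm3, Chaf1a and Chaf1b were lost. The calls of Mcm5, Mcm6 and Cdt1 in the last interval stood without either P28 sample.

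**Figure D4:**
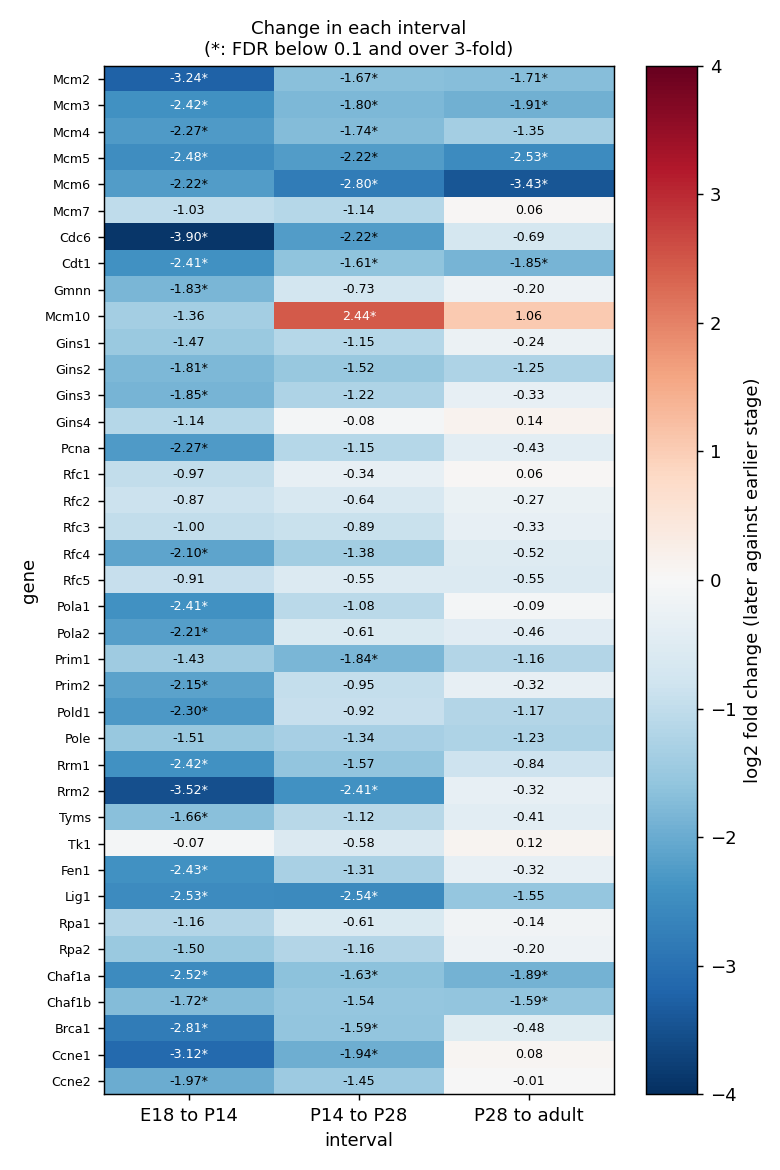
Log2 fold change of the 39 genes (rows) in the 3 intervals (columns), as colour and printed value; blue is lower and red is higher at the later stage, and an asterisk marks a false discovery rate below 0.1 with a change over 3-fold. Asterisks thin out from 26 in the first column to 14 and then 7, and the later cells of Mcm10, at 2.44 and 1.06, are the deepest red.

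The balance between related members was compared within each sample. Such ratios do not depend on how samples are scaled to each other. The ratio of Ccne1 to Ccne2 was 3.31 ± 0.073 at E18 (SD, n = 2 samples), 1.49 ± 0.061 at P14, 1.06 ± 0.24 at P28 and 1.12 ± 0.21 in adults, and it lay below 1 in 1 of the 2 samples at both later stages. The ratio of Rrm2 to Rrm1 was 0.720 ± 0.025, 0.336 ± 0.0071, 0.187 ± 0.0061 and 0.272 ± 0.089 at the same stages. The ratio of Cdt1 to its inhibitor Gmnn was 1.15 ± 0.098, 0.760 ± 0.037, 0.418 ± 0.10 and 0.131 ± 0.0095, a change at every stage. The ratio of Rfc1 to the mean of Rfc2 to Rfc5 moved the other way, from 0.528 ± 0.054 to 0.621 ± 0.0041, 0.865 ± 0.012 and 1.13 ± 0.0041.

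In each of the 4 ratios the E18 samples did not overlap the 6 postnatal samples. The log2 ratio at E18 minus that of the postnatal samples was 1.47 for Ccne1 to Ccne2, 1.49 for Rrm2 to Rrm1, 1.73 for Cdt1 to Gmnn and -0.69 for Rfc1 to the other loader subunits. A two-sided exact permutation test over the 28 arrangements of the samples gave p = 0.036, 0.036, 0.071 and 0.071. The smallest p this design allows is 0.036, and after Benjamini-Hochberg adjustment over the 4 ratios every p was 0.071, so none passed 0.05.

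**Figure D5:**
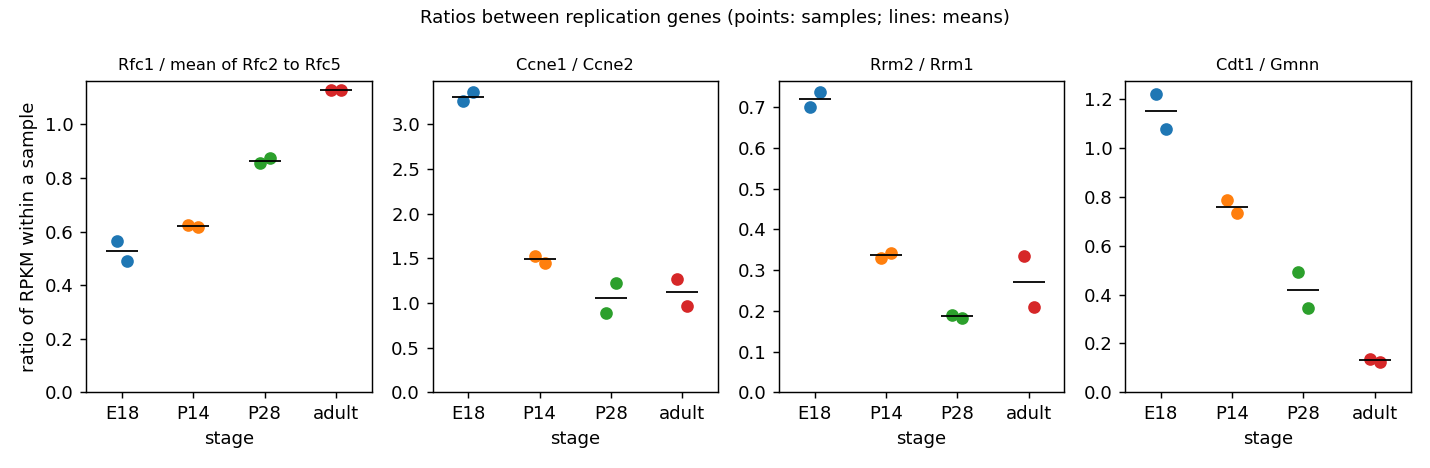
Ratio of scaled RPKM within each sample (linear axes from 0) for 4 sets of related genes, by stage. Points are the 2 samples and lines the means; the ratio of Cdt1 to Gmnn steps down at each stage from 1.15 to 0.131, and that of Rfc1 to the other loader subunits steps up from 0.528 to 1.13.

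A wider list of 49 further replication genes, among them the origin recognition complex, firing factors, topoisomerases and remaining polymerase subunits, gave 30 called lower from E18 to adult, 1 called higher and 18 neither, with a median log2 fold change of -2.60. In the 3 intervals 24, 10 and 10 of them were called lower and none higher. Of all tested genes 15.4%, 5.98% and 2.24% were called lower and 13.8%, 3.61% and 0.767% higher. With no fold threshold 45 were lower and 3 higher from E18 to P14, against 6719 and 6517 of 17081 tested genes. Pold4, 1 of these 3, rose 2.91-fold in that interval. The 3 largest falls were in Ticrr, Clspn and Exo1. Ticrr, a firing factor listed under its older name 5730590G19Rik, had 4533 and 3843 reads at E18 and 3 and 2 in adults. Clspn, which encodes the fork checkpoint adaptor claspin, read 17.3 and 20.0 scaled RPKM at E18 and 0.0311 and 0.0242 in adults. The nuclease gene Exo1 had 4442 and 3754 reads at E18 and 7 and 0 in adults. Tk2, the gene of the mitochondrial thymidine kinase, was the one called higher and read 3.82 and 4.30 scaled RPKM at E18 and 14.4 and 15.6 in adults (log2 fold change 1.89 ± 0.10, SE; adjusted p = 1.7e-07, edgeR).

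Markers of blood-forming cells fell over the same time. Of 15 erythroid markers all 15 were called lower from E18 to P14, with a median log2 fold change of -6.74. Their summed level was 11460 and 14770 scaled RPKM at E18, then 202.9 and 182.1 at P14. It was 106.6 and 101.5 by P28, and 77.9 and 81.8 in adults. The globin genes Hba-a1 and Hba-a2 had nearly the same reads, as had Hbb-b1 and Hbb-b2, so each pair may rest on the same reads. Without the globins the other 11 markers summed to 2850 and 3703 at E18 and to 101.9 and 98.2 at P14. They summed to 35.4 and 42.8 by P28 and to 39.4 and 37.8 in adults. Granulocyte markers summed to 1394 and 1743 at E18, then 278.0 and 302.1 at P14, 9.73 and 6.38 by P28, and 2.67 and 7.10 in adults, and all 9 were called lower from E18 to P14 and 8 of the 9 from P14 to P28. In adults Ctsg, Ngp and Camp had 0 reads in both samples. All 6 megakaryocyte and all 5 progenitor markers were called lower from E18 to adult. The summed level of the 39 replication genes was 1410 and 1704 at E18, then 396.4 and 389.2 at P14. It was 221.9 and 211.3 by P28, and 225.4 and 220.2 in adults. Without Mcm10, which rose after P14, the other 38 summed to 1390 and 1683 at E18 and to 388.6 and 381 at P14. Those 38 summed to 181.1 and 164.9 by P28 and to 139.8 and 124.3 in adults. The part of blood-forming cells in the fall of the replication genes was not tested.

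The 2 E18 samples differed in a common direction. Of the 39 genes, 38 were higher in E18 replicate 2 than in replicate 1, Pole being the exception, with a median ratio of 1.22, against 51.0% of all tested genes. The erythroid sum was also higher in replicate 2, as given above, and the 11 pancreatic acinar markers summed to 203.9 in replicate 1 and 455.4 in replicate 2, with 8 of the 10 tested called lower by adulthood. Cela1, of the same list, was called higher, from 8.96 and 12.6 at E18 to 94.5 and 107.3 in adults, where it made up most of the acinar sum of 99.1 and 111.5. Pnlip, an acinar marker, had 1 and 5 reads in the E18 samples and 0 in the other 6. Their part in the E18 levels was not tested. Without E18 replicate 2 the members' median log2 fold change was -1.91 from E18 to P14 and -3.81 from E18 to adult.

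For some members the exons of another gene on the opposite strand overlap, and whether reads were counted by strand is not given in the sources used here. The share of exonic bases overlapped in the GENCODE annotation was 78.8% for Fen1 by Gm10143, 67.3% for Gins2 by Gse1, 52.5% for Chaf1a by Ubxn6, 17.4% for Ccne2 by Ints8, 15.1% for Rfc2 by Lat2, 12.7% for Rfc4 by Eif4a2 and 10.7% for Rfc5 by Wsb2. Ubxn6 read 15.6 and 15.3 scaled RPKM at E18 and 40.5 and 39.9 in adults, higher where Chaf1a was lower. Gse1 read 14.6 at E18 in both samples, 2.499 and 3.152 at P14, and 6.93 and 7.93 in adults, a level above that of Gins2 in adults. Besides Mcm7, near-identical stretches in processed pseudogenes cover 51.4% of the Pcna transcript, 11.5% of that of Tk1 and 8.80% of that of Rrm2, so these levels are uncertain to that extent, as is that of Tyms, up to 11.4% of whose transcript recurs in each of several unrelated transcripts.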

How the data were processed

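RNA from liver of FVB mice (FVB/NJ in the study's methods), 2 samples at each of 4 stages, was sequenced as paired reads of 100 bases. The authors deposited, for each sample, a read count and an RPKM value per gene. Deposited counts are raw. The deposited RPKM values are counts divided by gene length and by a library total of which 91.4% to 94.1% fell on genes. The submitters' processing notes name the mm9 build. The aligner, the counting tool, its use of strand and the annotation are not given in the sources used here.

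Counts of all 8 samples were fitted with edgeR 4.0.16 (filterByExpr, TMM scaling, 1 coefficient per stage, quasi-likelihood test) in R 4.3.3, where the study used DESeq. Genes were called at a false discovery rate below 0.1 over 17081 genes and a change over 3-fold. Levels are TMM-scaled RPKM with gene length recovered from counts and RPKM. DESeq2 1.42.0 and limma 3.58.1 (log2 of RPKM + 0.1), median-ratio scaling, library size alone, other filters and thresholds, a replicate block, only the stages compared, and leaving out each sample were alternatives. The fit was tested on simulated data. Ratios were compared by exact permutation (scipy 1.17.1). Overlaps and copies (97% identity over 100 bases, blastn 2.17.0) came from GENCODE M21, a later annotation than that of the files, so no coordinates were transferred.

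Members and lists were chosen with earlier results of these data known. All members are named. Values by sample are given for the member with the largest and the smallest fall in each role and for genes of the ratios; Gins4 was added after its values were seen. Promoter stretches follow the same rule, and 1 of them is not reported here.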

Additional observations from a re-analysis of the deposited data

How the results depend on the processing

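Direction from E18 to adult was kept by all 39 genes in every alternative. Over 624 combinations of gene and alternative none reversed, 2 lost the call and 4 gained it, in 3 genes. Scaling by library size alone, and limma on log2(RPKM + 0.1), moved the median of all tested genes from E18 to adult from -0.11 to -0.96 and -0.78. With them the members' median was -2.97 and -2.94 from E18 to P14 and -4.85 and -4.63 from E18 to adult, Mcm10 (1.30 and 1.27) was no longer called so that 0 genes were called higher, and Gins4 (-1.93 and -1.94) and Rfc1 (-2.10 and -2.11) were called lower. Both alternatives leave out the TMM factors. At a 2-fold threshold 27 genes were lower from P14 to P28 and 13 from P28 to adult, where 1 was higher. The share of all tested genes at 2-fold was not counted, so these counts have no background. With no fold threshold they were 37, 18 and 1, against 4889, 2259 and 1357 of 17081 tested genes. At 3-fold with all samples, 5.98% of all tested genes were called lower from P14 to P28. The shares were 2.24% from P28 to adult and 15.4% from E18 to P14. Leaving out each sample in turn gave 8 to 17 genes lower from P14 to P28, 3 to 9 from P28 to adult and 24 to 28 from E18 to P14; the members' median ran from -2.27 to -1.91 from E18 to P14 and from -4.0 to -3.81 from E18 to adult. The stage left with 1 sample was assumed to vary like the others. With the replicate block the counts were 26, 13, 7 and 35 lower, as without it; same-numbered samples did not deviate together (mean r = -0.0879 over 6 pairs of stages, from -0.339 to 0.138), so the numbers do not pair the samples. With 2 samples a stage, no sample could be tested for standing apart from its group. In adults, low counts limit Cdc6 most, with 14 reads in a sample.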
